A study of Homo sapiens with 51 samples.

Results

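Imprinted genes outside chromosome 14 were followed at the level of open chromatin: GNAS, H19, IGF2, IGF2R, KCNQ1OT1, SNRPN, PEG3, PEG10, MEST and NNAT. A counted region belonged to a gene when the nearest annotated end of any coding or long noncoding gene lay within 50 kb of the region's centre and was an end of that gene. By that rule 8 of the 10 genes had regions, and no region was assigned to H19 or PEG3, which are not analysed here. The 8 genes held 38 of 100584 counted regions in undifferentiated cells. Among BMP4 regions they held 75 of 142087, and among SMADi regions 63 of 162317.

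The data were ATAC-seq counts, in which a transposase cuts accessible DNA and the cut fragments are sequenced. All 51 libraries came from H1, an established human embryonic stem cell line, with 17 libraries labelled KO, 16 labelled ΔATG (DATG in the sample names) and 18 labelled WT. The labels name neither the edited gene nor the number of clones behind a line, so no edit could be checked and each line may be a single clone. Cells were sampled without treatment at day 0, on days 1 to 5 of BMP4, a growth factor used to drive mesoderm, and on days 1, 4 and 5 of a neural induction medium with SMAD inhibitors (SMADi), used to drive neuroectoderm. Each line had 2 libraries per day, lettered a and b, except for 3 SMADi groups with 1 library each: day 4 of KO, and days 1 and 5 of DATG. Such a lone library was tested with the spread of the other groups. Leaving out a lone library drops its day from both lines of any comparison averaged over days. The value then covers the remaining days only and is not the same comparison.

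Imprinted genes are transcribed mainly from a single parental copy. Their imprint is DNA methylation laid down in sperm or egg at a control region, which zinc-finger proteins such as ZFP57 help to keep after fertilization. KCNQ1OT1 is a long noncoding RNA that starts at the control region inside KCNQ1, runs antisense to it and silences its neighbours on the paternal copy. IGF2 is a growth factor expressed from the paternal copy, and IGF2R is the receptor that clears it. GNAS encodes a stimulatory G protein subunit and has several alternative starts with different parental patterns. SNRPN encodes a splicing protein at the Prader-Willi locus. PEG10 is a retrotransposon-derived gene of the placenta, MEST belongs to the hydrolase fold family, and NNAT is a small membrane protein gene within an intron of BLCAP. Cultured stem cells can lose imprints, but accessibility summed over both copies does not read them.

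RefSeq promoter windows (GRCh38.p14), from 250 bases before to 50 after an annotated start, were found for 5 of the 10 genes, 17 windows in all. Each of the 5 printed here overlaps a counted region in all 3 tables, and they are shown as the starts these regions cover, with the ZFP57 hexamer TGCCGC, in either orientation, in capitals.

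IGF2R chr6:159968832-159969131 (+): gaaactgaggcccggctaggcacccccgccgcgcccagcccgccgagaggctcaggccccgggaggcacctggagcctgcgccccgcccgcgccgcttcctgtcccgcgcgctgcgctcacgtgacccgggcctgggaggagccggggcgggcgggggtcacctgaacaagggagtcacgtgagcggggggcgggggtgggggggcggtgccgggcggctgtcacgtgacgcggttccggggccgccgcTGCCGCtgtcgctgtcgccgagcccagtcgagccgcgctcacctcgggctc
MEST chr7:130486097-130486396 (+): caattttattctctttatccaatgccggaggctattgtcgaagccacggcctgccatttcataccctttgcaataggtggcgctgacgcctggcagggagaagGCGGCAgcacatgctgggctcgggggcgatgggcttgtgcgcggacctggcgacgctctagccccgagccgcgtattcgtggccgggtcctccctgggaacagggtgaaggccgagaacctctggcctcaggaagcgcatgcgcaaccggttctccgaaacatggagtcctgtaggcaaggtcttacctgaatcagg
SNRPN chr15:24954737-24955036 (+): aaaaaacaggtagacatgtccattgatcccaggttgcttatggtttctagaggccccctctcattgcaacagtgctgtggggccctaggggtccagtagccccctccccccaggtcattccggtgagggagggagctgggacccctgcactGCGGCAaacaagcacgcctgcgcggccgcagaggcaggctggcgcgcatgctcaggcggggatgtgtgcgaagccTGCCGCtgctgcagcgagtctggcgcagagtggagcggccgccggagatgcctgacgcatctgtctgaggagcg
GNAS chr20:58839498-58839797 (+): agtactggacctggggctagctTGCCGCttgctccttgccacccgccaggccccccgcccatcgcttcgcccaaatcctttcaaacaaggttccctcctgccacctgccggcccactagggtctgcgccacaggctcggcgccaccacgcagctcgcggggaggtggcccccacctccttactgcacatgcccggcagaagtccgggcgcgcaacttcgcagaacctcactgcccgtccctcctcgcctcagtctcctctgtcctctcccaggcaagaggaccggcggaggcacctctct
GNAS chr20:58888930-58889229 (+): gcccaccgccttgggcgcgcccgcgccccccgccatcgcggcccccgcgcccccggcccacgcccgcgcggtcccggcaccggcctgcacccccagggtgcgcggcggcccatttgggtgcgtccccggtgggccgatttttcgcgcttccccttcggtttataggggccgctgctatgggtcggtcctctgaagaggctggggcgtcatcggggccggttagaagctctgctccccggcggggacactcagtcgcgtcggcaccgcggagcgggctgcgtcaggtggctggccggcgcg

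The TGCCGC hexamer stood once in the IGF2R, MEST and first GNAS windows, 2 times in the SNRPN window and not in the second GNAS window, and 16.7% of all 34943 windows of that length held it on either strand. The NRF1 motif GCGCATGC stood 2 times in the MEST window, as matches that overlap each other on opposite strands, and once in the SNRPN window, against 3.02% of all windows. The CTCF core CGNGGNGGC stood once in the first GNAS window and 2 times in the second, against 15.3% of all windows. The YY1 motif GCCATNTT, held by 6.57% of all windows, was in none of the 5. No match to one of these motifs overlapped a match to another. CG dinucleotides numbered 41 in the IGF2R window, 22 in the MEST window, 18 in the SNRPN window, 21 in the first GNAS window and 43 in the second, against a median of 14. These matches describe letters, not bound sites.

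Total counts per library ran from 4616521 to 7516259 in undifferentiated cells, from 4019778 to 13850448 with BMP4 and from 7086918 to 23252871 with SMADi, and values are given as CPM, counts scaled to a common library total with TMM. Gene values are sums over a gene's regions. The biological coefficient of variation that edgeR estimated gene by gene for gene sums had a median of 0.0560 in the day 0 table. It was 0.0459 in the BMP4 table and 0.0749 in the SMADi table. Replicate b of KO on SMADi day 1 stood apart. At 1466 regions that separate the mutant lines it lay at 0.655 on a scale from KO at 0 to DATG at 1, near the DATG day 1 library at 0.755, while replicate a of its group lay at −0.54. SMADi calls for KO against WT are therefore given with and without it. Nothing in the labels says that replicates were separate cultures, so the p-values reflect how far these libraries vary, possibly for technical reasons alone. In bulk cells, fewer cells of a type and less accessibility per cell cannot be told apart.

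Levels were compared between genes only at single regions, which are all of equal length, taking the most accessible region of each gene. Across the 6 undifferentiated libraries PEG10 was highest with 35.2 ± 5.18 CPM (SD, n = 6). MEST followed with 28.5 ± 2.01 CPM, SNRPN with 26.6 ± 3.80 CPM and KCNQ1OT1 with 25.5 ± 1.78 CPM. The ranges of neighbours in this order overlapped, but the lowest KCNQ1OT1 value, 23.4 CPM, lay above the highest value of the next gene, IGF2, 17.8 CPM. IGF2 averaged 15.4 ± 1.70 CPM, GNAS 15.3 ± 2.34 CPM, IGF2R 12.1 ± 3.57 CPM and NNAT 7.35 ± 1.17 CPM. PEG10 was also first under BMP4, with 39.8 ± 7.75 CPM over 30 libraries, and under SMADi, with 30.3 ± 5.72 CPM over 15 libraries, and NNAT was last in both.

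The strongest MEST region lies under its printed start and carried 86.4% of the gene's sum at day 0, so the MEST sum is close to that single region. The strongest PEG10 region carried 60.7% and the strongest NNAT region 25.4%. All KCNQ1OT1 regions lie within KCNQ1, with 6 in the day 0 table, 22 in the BMP4 table and 14 in the SMADi table. Of the IGF2 regions, 4 of 7 in the day 0 table, 10 of 13 in the BMP4 table and 6 of 11 in the SMADi table were as near to the overlapping INS-IGF2 readthrough gene, which shares an end with it. Of the 75 member regions under BMP4, 36 had a day 0 region and 54 a SMADi region within 100 bp.

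In undifferentiated cells no member was called in any comparison of the lines, a call being a Benjamini-Hochberg adjusted p under 0.05 in edgeR's quasi-likelihood test over all genes. The test called 0.188% of all genes for KO against WT, 0.351% for DATG against WT and 0.670% for KO against DATG. At an unadjusted p under 0.05 the member counts were 0, 1 and 1 in the same order, against 2523, 2701 and 3095 of all 27629 genes. DESeq2 called no member. GNAS had 51.5 and 52.7 CPM in KO, 42.4 and 42.9 CPM in DATG and 50.9 and 45.0 CPM in WT, so the 3 lines did not overlap. Its log2 fold change of KO over DATG was 0.28, the member range being −0.11 to 0.28. SNRPN had 72.6 and 69.6 CPM in KO and 67.2 and 63.7 CPM in WT, again without overlap and without a call. Overlap with WT was also absent for MEST in both lines and for IGF2R, PEG10 and NNAT in DATG. With 2 libraries a line such separation was common among the members, and it was not counted over all genes. Of the 38 single regions none was called, against 0.0855%, 0.205% and 0.330% of all regions for the same 3 comparisons. At an unadjusted p under 0.05 stood 2, 3 and 3 member regions, against 8349, 8874 and 9683 of all 100582 tested regions. DESeq2 called none of the 38 either.

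**Figure D1:**
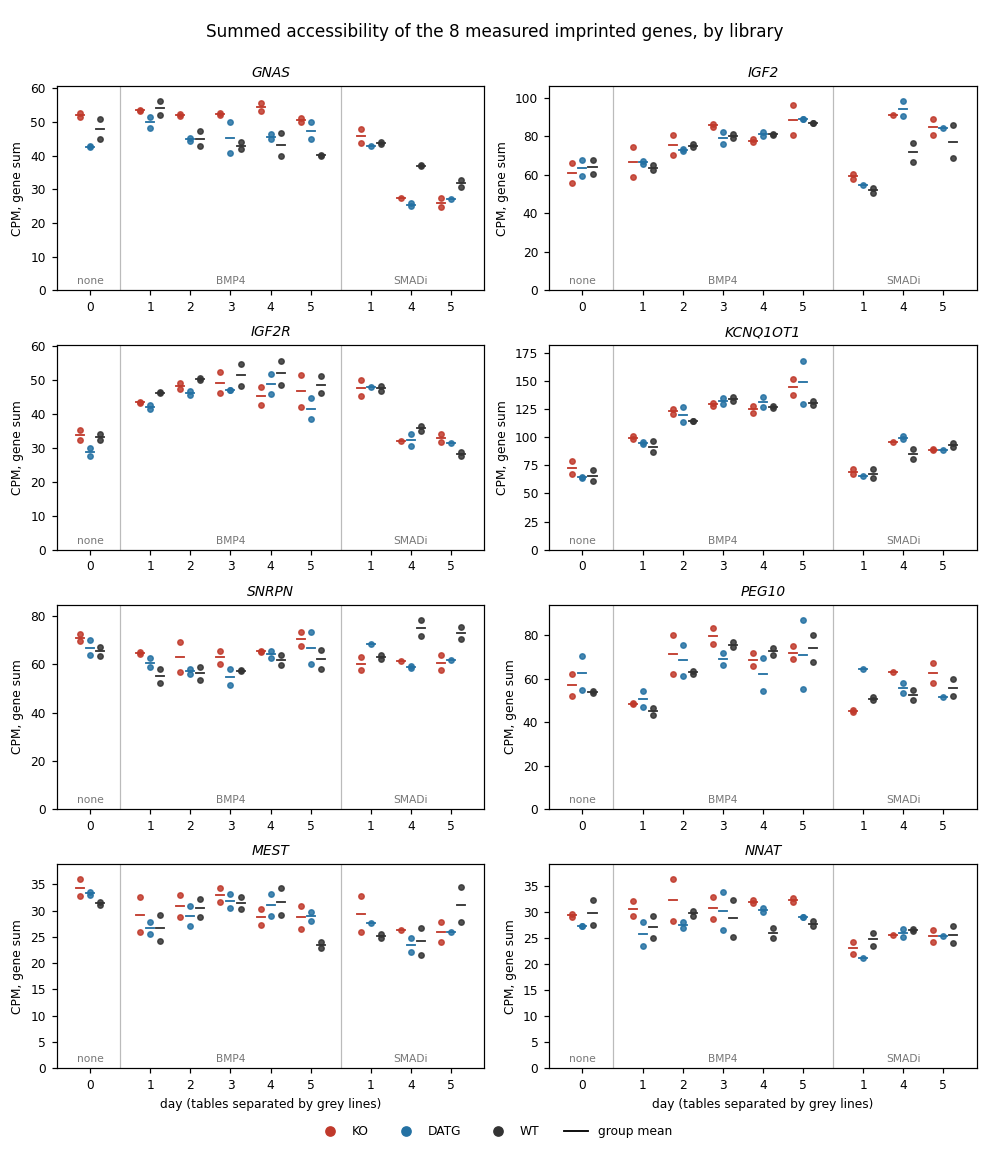
Summed accessibility of each measured gene in CPM (vertical axis) by day (horizontal axis) without treatment, under BMP4 and under SMADi, with a point per library and a dash at the group mean, for KO, DATG and WT. GNAS in KO lies at 49.96 to 55.8 CPM throughout BMP4, while KCNQ1OT1 is higher on day 5 than on day 1 in WT under both treatments. Each table was counted over its own regions, so levels are comparable only within a section.

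In WT under BMP4, 4 of 8 genes were called between day 5 and day 1, against 47.6% of all genes. PEG10 was higher on day 5, with 80.0 and 67.9 CPM on day 5 and 43.3 and 46.6 CPM on day 1, a log2 fold change of 0.71 ± 0.15 (SE, adjusted p = 7.39e-04 in edgeR's test). KCNQ1OT1 was higher, with 128 and 132 CPM on day 5 and 86.5 and 96.4 CPM on day 1 (0.52 ± 0.07). IGF2 was higher, with 87.0 CPM in both day 5 libraries and 62.7 and 64.9 CPM on day 1 (0.45 ± 0.08). GNAS was lower, with 39.9 and 40.3 CPM on day 5 and 56.2 and 52.0 CPM on day 1 (log2 fold change −0.44 ± 0.09). In none of these 4 genes did the day 5 and day 1 libraries overlap. IGF2R, SNRPN, MEST and NNAT were not called, with log2 fold changes from −0.17 to 0.16. The median over the 8 genes was 0.11, and that over all genes −0.01. With libraries scaled by total count, the share of all called genes that were higher on day 5 was 42.0% in place of 52.3%. The same 4 member calls, in the same directions, held under that scaling. The IGF2 call was lost within 1 kb of the ends, where the log2 fold change was 0.05, within 2 kb (0.15), and over the whole span (0.16), where the GNAS call was lost too (−0.05). PEG10 had no BMP4 region within 1 kb of an end, and so no value there.

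Under SMADi, 5 of 8 genes were called between day 5 and day 1 in WT, against 43.9% of all genes. KCNQ1OT1 (0.47 ± 0.08) and IGF2 (0.59 ± 0.09) were higher on day 5. GNAS (−0.46 ± 0.11) was lower over the regions assigned to it by nearest end, which reach 11913 bp into the gene. The GNAS call was lost within 1 kb (−0.02), within 2 kb (−0.08) and over the whole span (0.06), so its direction depends on which regions are counted. IGF2R was lower, with 27.6 and 28.9 CPM on day 5 and 47.0 and 48.4 CPM on day 1 (−0.75 ± 0.11, adjusted p = 7.10e-07). SNRPN was higher by 0.21 ± 0.08 (adjusted p = 0.0426), a call lost without WT day 1 a, WT day 1 b, WT day 5 a, DATG day 4 a or DATG day 4 b, where the value ran from 0.16 to 0.23. It was lost too within 1 kb (0.22), within 2 kb (0.15), over the span (0.09), with RLE scaling (0.19) or total-count scaling (0.16) and under DESeq2 (0.19). The KCNQ1OT1 call was lost within 1 kb (0.38), within 2 kb (0.32) and over its span (0.01), so that IGF2 and IGF2R alone of the 5 were called under all 3 of those choices. PEG10, MEST and NNAT were not called, with log2 fold changes of 0.12, 0.29 and 0.04.

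Markers of pluripotent, mesoderm and neuroectoderm cells also differed between these days. In WT under BMP4, the summed level of POU5F1, SOX2 and NANOG was 151 to 155 CPM on day 5 and 201 to 204 CPM on day 1, and all 3 were called lower. HAND1 and MESP1 were called higher, TBXT lower, and the mesoderm sum was 306 to 340 CPM on day 5 and 229 to 231 CPM on day 1. PAX6, SOX1 and LHX2 were all called lower. Under SMADi POU5F1 fell by 1.51 and NANOG by 0.78 on the log2 scale, and SOX2 was higher by 0.28. PAX6 (0.20) and SOX1 (−0.07) were not called and LHX2 was lower by 0.21, so the neuroectoderm list was not higher as a whole in these WT cells. Of the mesoderm markers HAND1 (−0.39) and TBXT (−0.86) were lower, and MESP1 was not called (0.04). No marker was at 0 in the tables. The part of cell type in the member results was not tested.

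Single regions showed where in a locus WT cells changed. Under BMP4, 26 of 75 member regions were called between day 5 and day 1, 21 higher and 5 lower, against 34.9% of all regions. Under SMADi 25 of 63 were called, 16 higher and 9 lower, against 40.9%. Both shares are near their background. KCNQ1OT1 held 22 of the 75 BMP4 regions and 14 of the 63 SMADi regions. It supplied 11 of the BMP4 calls and 5 of the SMADi calls, each of them higher on day 5. With total-count scaling the median of all regions was −0.17 under BMP4 and −0.10 under SMADi, in place of −0.03 and 0.00, and values below are relative to the TMM scaling.

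In KCNQ1OT1 the highest fold changes lay in the far flanks. A region 41.7 kb beyond the end opposite its start (chr11:2566513-2566713) had 6.03 and 4.10 CPM on day 5 and 0.240 and 0.260 CPM on day 1 under SMADi, a log2 fold change of 4.25 ± 0.47. A region 40.8 kb beyond that end (chr11:2567432-2567632) was higher under BMP4 by 3.28 ± 0.47, with 3.83 and 3.99 CPM on day 5 and 0.265 and 0.538 CPM on day 1. On the other side, 21.4 kb upstream of the start, chr11:2721284-2721484 had 17.5 and 19.7 CPM on day 5 and 4.15 and 3.51 CPM on day 1 under SMADi (2.29 ± 0.19, adjusted p = 1.94e-13). The same place (chr11:2721266-2721466) was higher by 0.85 ± 0.26 under BMP4, a call lost without WT day 1 a (0.70) or WT day 5 a (0.63). At the start itself (chr11:2700072-2700272), the BMP4 values were 20.1 and 22.4 CPM on day 5 and 13.4 and 12.9 CPM on day 1 (0.69 ± 0.15), and under SMADi the start was not called (0.40 ± 0.20). The strongest region, 6.52 kb into the transcript, was called under neither treatment (0.17 ± 0.15 and 0.03 ± 0.15).

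**Figure D2:**
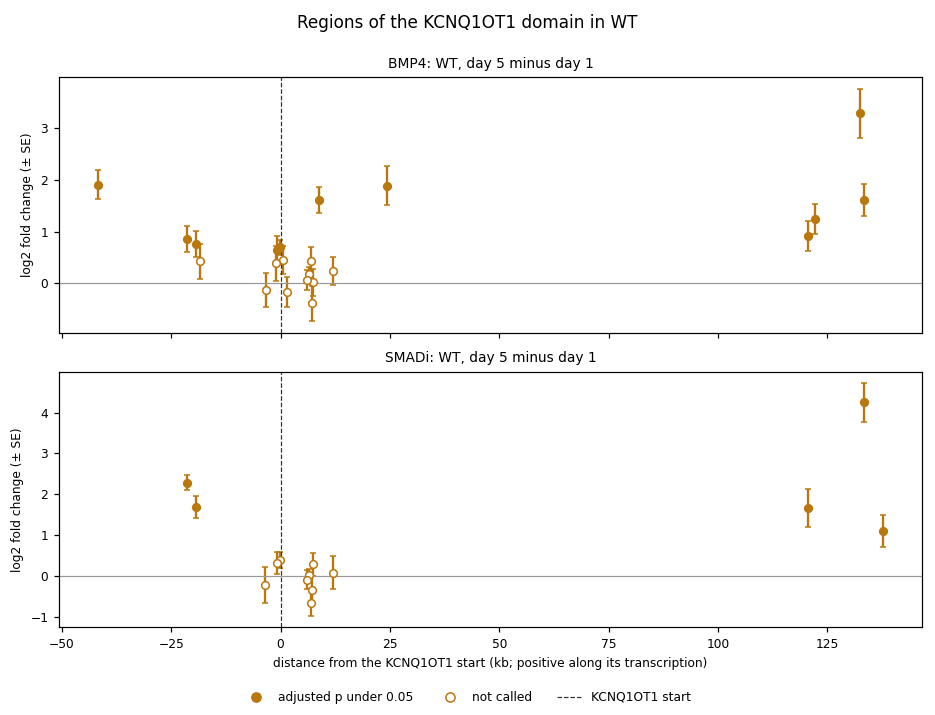
Log2 fold change of day 5 over day 1 in WT (vertical axis, ± SE) for each KCNQ1OT1 region by its distance in kb from the KCNQ1OT1 start (horizontal axis, positive along its transcription), under BMP4 and SMADi. Filled points passed an adjusted p of 0.05. The highest values, 3.28 under BMP4 and 4.25 under SMADi, lie beyond the end of the transcript, and the region at the start has 0.69 under BMP4 and 0.40 under SMADi.

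At the IGF2 locus a region 31.4 kb beyond the lower end (chr11:2097660-2097860), on the far side from its first exons, was the strongest of the gene under both treatments. It had 27.0 and 22.6 CPM on day 5 and 9.26 and 10.3 CPM on day 1 under BMP4 (1.33 ± 0.17, adjusted p = 6.88e-11), and was higher by 1.12 ± 0.16 under SMADi. A region 1.14 kb beyond the upper end, where IGF2 transcription starts (chr11:2150609-2150809), was higher under SMADi by 2.06 ± 0.25, with 7.50 and 8.74 CPM on day 5 and 1.92 and 2.01 CPM on day 1.

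IGF2R gained and lost accessibility near its downstream end. A region inside the gene, 9.87 kb before that end (chr6:160101538-160101738), had 5.36 and 4.22 CPM on day 5 and 0.441 and 0.431 CPM on day 1 under BMP4 (3.39 ± 0.42). Just past the end, chr6:160111883-160112083 was lower by 1.00 ± 0.20 on the log2 scale under BMP4. There the SMADi region had 0.147 and 0.993 CPM on day 5 and 9.07 and 10.8 CPM on day 1, a log2 fold change of −3.79 ± 0.37. Within the gene, 10.3 kb from its start, chr6:159979313-159979513 was lower under SMADi too (−1.52 ± 0.32). A further region 8.02 kb before the downstream end was lower under BMP4 (−0.68 ± 0.24), a call lost without WT day 1 b (−0.37) or WT day 5 b (−0.30). The region under the printed start was called under neither treatment (0.37 ± 0.18 and −0.13 ± 0.22).

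GNAS fell at a region 3.73 kb inside its first start. Under BMP4 chr20:58843382-58843582 had 4.45 and 3.08 CPM on day 5 and 6.08 and 6.03 CPM on day 1 in WT (−0.72 ± 0.24), a call lost without WT day 1 a (−0.72) or WT day 5 b (−0.45). Under SMADi that place had 2.65 and 2.32 CPM on day 5 and 6.19 and 6.56 CPM on day 1 (−1.38 ± 0.29). At the strongest PEG10 region under BMP4 the values were 49.7 and 43.2 CPM on day 5 and 23.1 and 29.0 CPM on day 1 (0.84 ± 0.15).

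Against WT, the mutant lines were next compared over the days of BMP4, each day's difference weighing equally. In KO, 3 of 8 genes were called, against 26.5% of all genes, and each of the 3 was higher. GNAS had 49.96, 52.5 and 55.8 CPM in KO and 39.8, 43.4 and 56.2 CPM in WT (lowest, median and highest of 10 libraries each), a log2 fold change of 0.23 ± 0.04 (adjusted p = 1.30e-05). KO lay above WT without overlap on 4 of 5 days, and the groups overlapped on day 1. SNRPN had 56.9, 65.5 and 73.3 CPM in KO and 52.3, 58.3 and 65.8 CPM in WT (0.16 ± 0.04, adjusted p = 0.00150), and all 10 KO libraries lay above the WT mean of their day. NNAT had 28.4, 32.0 and 36.3 CPM in KO and 25.0, 27.8 and 32.3 CPM in WT (0.18 ± 0.05, adjusted p = 0.00953), with 8 of 10 KO libraries above the WT mean of their day. IGF2, IGF2R, KCNQ1OT1, PEG10 and MEST were not called, with log2 fold changes from −0.10 to 0.07. Counted within 1 kb or 2 kb of its ends, the GNAS call was lost (0.05 and 0.04).

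In DATG under BMP4 1 of 8 genes was called, against 13.0% of all genes. IGF2R had 38.6, 45.9 and 51.9 CPM in DATG and 46.2, 49.4 and 55.8 CPM in WT (−0.13 ± 0.04, adjusted p = 0.0291), with 10 of 10 DATG libraries below the WT mean of their day. The call was lost without DATG day 1 b, DATG day 2 b, DATG day 4 a, DATG day 5 b, WT day 3 a, WT day 4 a or WT day 5 a, with values from −0.13 to −0.11. KCNQ1OT1 was called higher in DATG without DATG day 5 a (0.10, with 0.06 over all libraries), and IGF2R was called lower in KO without KO day 5 b (−0.13, with −0.10 over all libraries). Between the mutant lines GNAS alone of the 8 genes was called, against 2.67% of all genes, higher in KO than in DATG by 0.18 ± 0.04 (adjusted p = 0.00510). DATG had 40.8, 45.9 and 51.6 CPM, so the KO and DATG ranges of GNAS overlapped. That call was lost within 1 kb (0.02) and 2 kb (0.05) of its ends. The change between day 1 and day 5 differed from that of WT for no member in KO, against 6.49% of all genes, nor in DATG, against 0.232%. At an unadjusted p under 0.05 stood 1 member in each, which is not read as a result, since the share of all genes is not given. Of single regions, 22631 for KO and 13269 for DATG of all 142083 tested stood under that p. DESeq2 called no member.

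**Figure D3:**
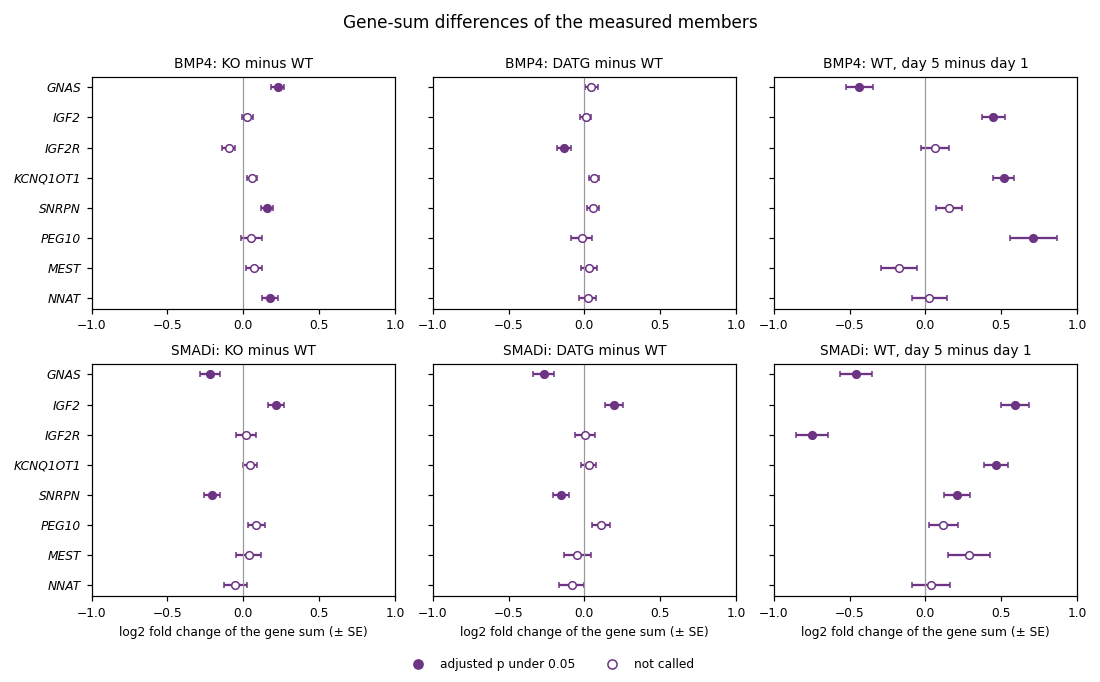
Log2 fold change of each gene sum (horizontal axis, ± SE) for KO over WT, DATG over WT and, in WT, day 5 over day 1, under BMP4 (upper row) and SMADi (lower row). Filled points passed an adjusted p of 0.05. Differences between lines stay within −0.27 to 0.23, and those between days of WT run from −0.75 to 0.71.

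Markers also differed between the lines under BMP4. On day 5 the mesoderm markers summed to 262 to 266 CPM in KO, 268 to 284 CPM in DATG and 306 to 340 CPM in WT. The pluripotency markers summed to 188 to 189 CPM in KO, 170 to 198 CPM in DATG and 151 to 155 CPM in WT. Of the 9 markers, POU5F1, SOX2, NANOG, PAX6, SOX1 and LHX2 were called higher in KO, HAND1 and MESP1 lower, and TBXT was not called. In DATG the same calls were made except that POU5F1 was not called. Their part in the member results was not tested.

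At single regions under BMP4, KO had 15 of 75 called, 10 higher and 5 lower, against 21.5% of all regions. DATG had 8 of 75 called, 6 higher and 2 lower, against 9.33% of all regions. Both shares are near their background, and both comparisons use the same WT libraries. KCNQ1OT1, with 22 of the 75 regions, held 7 of the KO calls and 6 of the DATG calls, with both directions in each. PEG10 and MEST had none in either line. The 5 regions within MEST that lie nearest to MESTIT1 had none either.

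Upstream of the KCNQ1OT1 start, the region 21.4 kb away was higher in both lines. In KO it had 2.96 and 3.51 CPM on day 1, 7.17 and 7.35 CPM on day 2, 8.82 and 7.71 CPM on day 3, 9.12 and 8.83 CPM on day 4 and 15.0 and 13.3 CPM on day 5. In DATG the 10 libraries had 3.67, 7.87 and 15.7 CPM (lowest, median and highest), and in WT they had 2.73, 5.24 and 7.16 CPM. KO was above WT by 0.66 ± 0.11 (adjusted p = 1.05e-06) and DATG by 0.62 ± 0.11 (adjusted p = 1.73e-05). KO and WT overlapped on day 1 and were apart from day 2 on. Its neighbour, 19.2 kb upstream of the start, was higher by 0.60 ± 0.11 in KO and 0.48 ± 0.12 in DATG.

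Inside the transcript, regions differed in direction. The region 8.85 kb from the start (chr11:2691046-2691246) was lower in both lines, with 2.39, 3.81 and 5.57 CPM in KO, 1.66, 4.00 and 6.52 CPM in DATG and 2.12, 6.35 and 9.01 CPM in WT. KO fell below WT by 0.61 ± 0.13 and DATG by 0.48 ± 0.12 on the log2 scale, with the lines overlapping on day 1 and both WT libraries above every mutant library from day 2 on. In WT this region was higher on day 5 than on day 1 by 1.61 ± 0.25. The strongest KCNQ1OT1 region, 6.52 kb into the transcript, was called higher in KO (0.24 ± 0.07) and DATG (0.25 ± 0.07). A region 28.8 kb beyond the far end (chr11:2579388-2579588) was lower in KO (−0.40 ± 0.15, adjusted p = 0.0412) and DATG (−0.45 ± 0.15, adjusted p = 0.0394), calls that were each lost in 11 of the 30 fits without a library.

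The GNAS region 3.73 kb inside the first start had 5.10, 6.05 and 7.51 CPM in KO, 5.18, 6.19 and 7.51 CPM in DATG and 2.83, 4.11 and 6.08 CPM in WT under BMP4. On day 1 the 6 libraries lay between 6.03 and 6.21 CPM, and on days 2 to 5 every mutant library lay above both WT libraries of its day. KO was higher by 0.56 ± 0.11 and DATG by 0.59 ± 0.11. IGF2R chr6:160101538-160101738, which opened in WT, was lower in KO (−1.26 ± 0.27, adjusted p = 1.13e-04), with 1.02 and 1.81 CPM in KO on day 5 and 5.36 and 4.22 CPM in WT on day 5. DATG had 1.98 and 3.48 CPM on that day (−0.64 ± 0.24 over all days, not called, but called at −0.79 without WT day 2 a). An IGF2 region beyond the lower end (chr11:2120748-2120948) was lower in KO (−0.38 ± 0.14, adjusted p = 0.0337), a call lost in 9 of the 30 fits without a library (−0.38 to −0.29). The strongest SNRPN region, at the upstream end of the gene, was higher in KO (0.25 ± 0.07), with 20.1, 24.4 and 30.1 CPM in KO and 15.3, 21.2 and 24.9 CPM in WT.

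**Figure D4:**
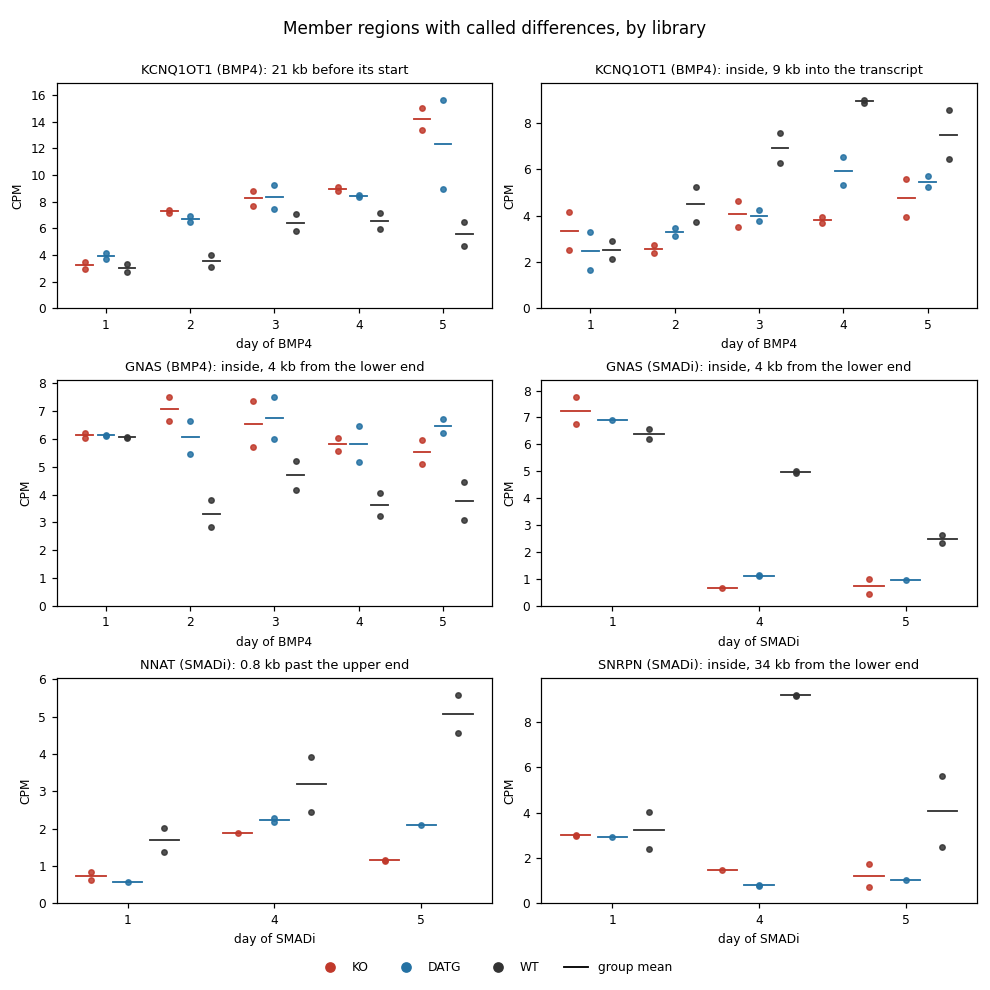
CPM (vertical axis) by day (horizontal axis) at single regions with called differences, with a point per library and a dash at the group mean, for KO, DATG and WT. The first region reaches 13.3 to 15.0 CPM in KO on day 5 of BMP4, while the WT libraries stay at or below 7.16 CPM on every day. Under SMADi the GNAS region lies at 0.447 to 1.00 CPM in KO on day 5 and at 2.32 to 2.65 CPM in WT.

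Under SMADi, KO differed from WT in 3 of 8 genes, against 44.8% of all genes, and DATG in 3 of 8, against 33.9%, the same WT libraries serving both. GNAS, IGF2 and SNRPN were called in each. IGF2 was higher in KO by 0.22 ± 0.05 (adjusted p = 0.00178) and in DATG by 0.19 ± 0.06 (adjusted p = 0.0106). Within 1 kb of its ends IGF2 was called in neither line (KO 0.30, or 0.31 without KO day 1 b, and DATG 0.16), and within 2 kb it was not called in DATG (0.27). On day 4 IGF2 had 91.1 CPM in the KO library, 98.2 and 90.6 CPM in DATG and 66.9 and 76.5 CPM in WT, and all 5 KO and 4 DATG libraries lay above the WT mean of their day. SNRPN was lower in KO (−0.21 ± 0.05, adjusted p = 0.00165) and in DATG (−0.15 ± 0.05, adjusted p = 0.0268). On day 5 SNRPN had 57.7 and 63.8 CPM in KO, 61.7 CPM in DATG and 75.5 and 70.6 CPM in WT, without overlap. On day 1, however, the DATG library was above both WT libraries, with 68.6 CPM against 62.1 and 63.9 CPM. The SNRPN call in DATG was lost without DATG day 4 a (−0.15), DATG day 5 a (−0.12), WT day 1 b (−0.15) or WT day 4 b (−0.13), and was also lost with the replicate letter as a block (−0.13, adjusted p = 0.0789), under DESeq2 (−0.15), within 1 kb (−0.21) and within 2 kb (−0.13). In KO the SNRPN call was lost within 2 kb (−0.18, or −0.21 without KO day 1 b) and held within 1 kb (−0.30), though not without KO day 1 b (−0.31).

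GNAS was lower over the regions assigned to it by nearest end in KO (−0.22 ± 0.07, adjusted p = 0.00693) and in DATG (−0.27 ± 0.07, adjusted p = 0.00318). On day 5 it had 24.7 and 27.4 CPM in KO, 27.2 CPM in DATG and 30.7 and 32.8 CPM in WT. The GNAS direction depends on which regions are counted: KO gave −0.09 within 1 kb of its ends, 0.03 within 2 kb and 0.15 over its whole span (called, adjusted p = 0.00225), and DATG gave 0.07, 0.15 and 0.01, none of them called. Without KO day 4 b, and so over days 1 and 5 alone, the KO values were −0.11 for GNAS (adjusted p = 0.253) and 0.15 for IGF2 (adjusted p = 0.0663), and neither was called. Without the doubted KO day 1 b library all 3 KO calls were made, at −0.21 for GNAS, 0.22 for IGF2 and −0.24 for SNRPN, against 38.6% of all genes. Without it GNAS in KO gave −0.04 within 1 kb, 0.06 within 2 kb and 0.14 over its span, with the last called. IGF2R, KCNQ1OT1, PEG10, MEST and NNAT were not called in either line, with log2 fold changes from −0.08 to 0.11. Over their whole spans IGF2R (0.20 in KO and 0.21 in DATG) and PEG10 (0.14 in KO and 0.16 in DATG) were called higher and KCNQ1OT1 in KO lower (−0.17), while the nearest-end value of KCNQ1OT1 was 0.05. Without KO day 1 b the whole-span KO values were 0.20 for IGF2R and −0.20 for KCNQ1OT1, both called, and 0.13 for PEG10, not called. Between KO and DATG no member was called, against 0.102% of all genes. None had an unadjusted p under 0.05, DESeq2 called none, and without KO day 1 b none was called.

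PEG10 changed differently over SMADi days. Between day 1 and day 5 its change in KO differed from that in WT (0.36 ± 0.13, adjusted p = 0.0453), against 26.6% of all genes. In DATG the difference had the other sign (−0.44 ± 0.16, adjusted p = 0.0464), against 21.4% of all genes, and no other member was called in either. PEG10 had 57.8 and 67.2 CPM on day 5 and 44.5 and 45.5 CPM on day 1 in KO, 51.8 CPM on day 5 and 64.6 CPM on day 1 in DATG, and 59.8 and 51.9 CPM on day 5 and 51.7 and 50.2 CPM on day 1 in WT. Each DATG value is a single library. Neither call was made without KO day 1 b (0.36, adjusted p = 0.0984, and −0.44, adjusted p = 0.0604). Further single libraries also ended them: WT day 1 a or b, KO day 1 a, DATG day 4 a or b for both calls, WT day 5 b or KO day 5 b for KO, and WT day 5 a for DATG. Values then ran from 0.24 to 0.37 for KO and from −0.46 to −0.34 for DATG. The change of MEST in KO was called without KO day 1 a (−0.63), KO day 5 b (−0.58) or WT day 5 b (−0.61), and that of SNRPN in DATG without WT day 5 b (−0.40), while over all libraries neither was called (−0.47 and −0.36).

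On day 5 of SMADi the neuroectoderm markers summed to 343 to 348 CPM in KO, 338 CPM in DATG and 255 to 281 CPM in WT. SOX1 averaged 205 CPM in KO, 191 CPM in DATG and 132 CPM in WT on that day, while LHX2 averaged 81.0, 88.8 and 85.2 CPM in the same order. Over the days SOX1 was called higher in KO (0.32, also 0.32 without KO day 1 b) and DATG (0.22), PAX6 was called higher in KO (0.15, but 0.12 and not called without KO day 1 b), and PAX6 in DATG (0.07) and LHX2 in both lines (KO −0.06, DATG −0.02) were not called. The pluripotency markers summed to 195 to 211 CPM in KO, 218 CPM in DATG and 173 to 186 CPM in WT. SOX2 made up most of these sums, with a mean of 193.5 CPM in KO, 208.6 CPM in the DATG library and a mean of 160 CPM in WT. Over the days, however, NANOG (KO −0.86, DATG −0.91) and POU5F1 (KO −0.96, DATG −0.79) were called lower in both lines and SOX2 (KO 0.13, DATG 0.13) higher. Without KO day 1 b these KO values were −0.89, −0.89 and 0.15, all called. The mesoderm markers summed to 141 to 146 CPM in KO, 146 CPM in DATG and 131 to 154 CPM in WT. HAND1 was called lower in DATG (−0.16), and no other mesoderm marker was called in either line. Their part in the member results was not tested.

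At single regions under SMADi, KO had 23 of 63 called, 13 higher and 10 lower, against 39.5% of all regions. Without KO day 1 b it had 20 of 63, 11 higher and 9 lower, against 33.9% of all regions. DATG had 16 of 63 called, 6 higher and 10 lower, against 28.5%. Leaving out KO day 4 b, and with it day 4, left 12 calls in KO. In DATG the count was 9 over days 1 and 4, without DATG day 5 a. It was 25 over days 4 and 5, without DATG day 1 a. The shares of all regions called in these reduced fits are not given, so the counts are not read as results about the members. The 5 regions within MEST nearest to MESTIT1 had no call against WT in either line. In WT 1 of them was higher on day 5 than on day 1, against 40.9% of all regions. For the change between those days 1 was called higher in KO and 1 in DATG, against 30709 and 22529 of 162313 regions called.

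**Figure D5:**
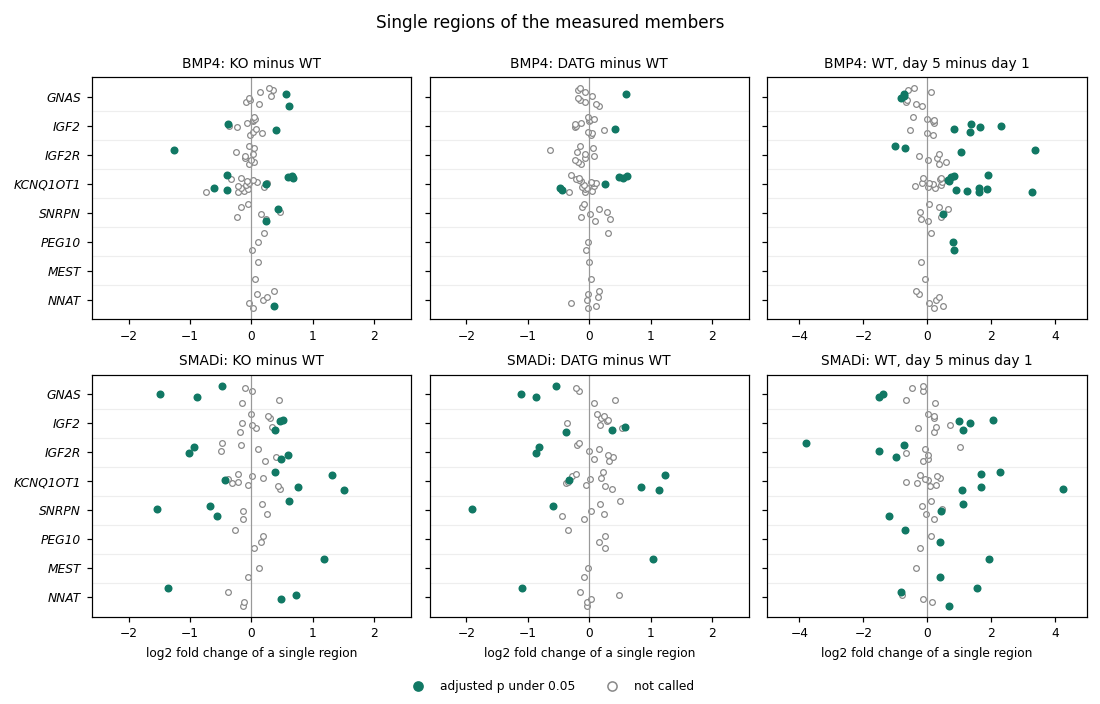
Log2 fold change (horizontal axis) of each single region of the measured genes (rows) for KO over WT, DATG over WT and, in WT, day 5 over day 1, under BMP4 (upper row) and SMADi (lower row). Filled points passed an adjusted p of 0.05. Within a gene, called regions often lie on both sides of 0, as in KCNQ1OT1 under BMP4 with 4 higher and 3 lower in KO.

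The largest losses under SMADi were at GNAS, SNRPN and NNAT. The SNRPN region 34.2 kb inside the upstream end (chr15:24857710-24857910) had 1.48 CPM in KO, 0.806 and 0.787 CPM in DATG and 9.20 and 9.16 CPM in WT on day 4. On day 5 it had 1.72 and 0.703 CPM in KO, 1.02 CPM in DATG and 2.50 and 5.63 CPM in WT, while on day 1 the lines overlapped. KO was lower by 1.53 ± 0.22 and DATG by 1.91 ± 0.24 on the log2 scale, and without KO day 1 b KO was again lower by 1.53. The GNAS region 3.74 kb inside the first start (chr20:58843384-58843584) had 0.673 CPM in KO, 1.14 and 1.09 CPM in DATG and 5.01 and 4.92 CPM in WT on day 4. KO was lower by 1.48 ± 0.22, by 1.45 without KO day 1 b, and DATG by 1.12 ± 0.21. This was the region that was higher in the mutant lines under BMP4, and whether the treatments differ there was not tested, since each table was fitted alone. A region 0.758 kb past the end of NNAT (chr20:37524348-37524548) had 1.15 CPM in both KO libraries, 2.09 CPM in DATG and 5.59 and 4.57 CPM in WT on day 5. KO was lower by 1.36 ± 0.24, by 1.43 without KO day 1 b, and DATG by 1.10 ± 0.26.

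Gains in the mutant lines under SMADi included regions of KCNQ1OT1 and IGF2. The region 45.9 kb beyond the far end of KCNQ1OT1 (chr11:2562313-2562513) had 7.23 and 7.41 CPM in KO, 8.95 CPM in DATG and 1.18 and 2.38 CPM in WT on day 5. KO was higher by 1.51 ± 0.21 (1.44 without KO day 1 b) and DATG by 1.13 ± 0.29. A region 3.59 kb upstream of the start (chr11:2703487-2703687) had 6.73 and 6.32 CPM in KO, 7.05 CPM in DATG and 0.882 and 1.52 CPM in WT on day 5 (KO 1.31 ± 0.24, 1.26 without KO day 1 b, DATG 1.23 ± 0.26). The strongest region of KCNQ1OT1 moved the other way on day 5, with 12.2 and 10.1 CPM in KO, 12.3 CPM in DATG and 22.1 and 23.04 CPM in WT (KO −0.44 ± 0.09, −0.47 without KO day 1 b, DATG −0.32 ± 0.10). On days 1 and 4 the lines were close at that region, the highest being a WT library. All 3 DATG calls were lost without DATG day 5 a, with values over days 1 and 4 alone of 0.60, 0.63 and −0.05. The IGF2 region 31.3 kb beyond the lower end was higher in KO (0.39 ± 0.09, 0.37 without KO day 1 b) and DATG (0.36 ± 0.10, but 0.24 and not called over days 4 and 5, without DATG day 1 a). The IGF2 region beyond the upper end had 13.7 and 11.5 CPM in KO, 13.1 CPM in DATG and 7.50 and 8.74 CPM in WT on day 5. KO was higher there by 0.51 ± 0.15, by 0.59 without KO day 1 b and by 0.34 with no call over days 1 and 5, without KO day 4 b. DATG was not called over all days (0.30 ± 0.18), but was called at 0.74 over days 4 and 5, without DATG day 1 a. The NNAT region at its start was higher in KO (0.48 ± 0.14, 0.49 without KO day 1 b). The DATG value of 0.03 ± 0.16 was not called, but was 0.46 and called over days 4 and 5, without DATG day 1 a. A region 9.36 kb past the end of MEST (chr7:130515728-130515928), named after its values were seen, had 4.29 and 3.58 CPM in KO, 3.16 CPM in DATG and 1.47 and 1.46 CPM in WT on day 5, and was higher in KO (1.19 ± 0.33, 1.32 without KO day 1 b) and DATG (1.04 ± 0.40).

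Parts of the loci lie nearer to the ends of other genes and do not count as members under the nearest-end rule, and the following 4 were picked out after their values were seen. The region under the second printed GNAS window (chr20:58889063-58889263), whose nearest end is that of LOC101927932, separated the mutant lines under BMP4. It had 10.9 to 17.9 CPM in KO, 5.98 to 11.5 CPM in DATG and 8.29 to 16.4 CPM in WT over the days. KO exceeded DATG by 0.65 ± 0.08 (adjusted p = 5.23e-09), KO exceeded WT by 0.27 ± 0.08 and DATG was below WT by 0.38 ± 0.09 on the log2 scale. At day 0 it had 17.4 and 16.9 CPM in KO, 9.04 and 14.1 CPM in DATG and 11.4 and 12.8 CPM in WT, and KO against DATG was not called (0.59 ± 0.19). The neighbouring region (chr20:58888767-58888967), which overlaps that window too, had 10.7 and 9.77 CPM in KO, 4.12 and 5.96 CPM in DATG and 5.30 and 8.44 CPM in WT at day 0. There KO exceeded DATG by 1.04 ± 0.25 (adjusted p = 0.0264), against 0.330% of all regions. At that place under BMP4 (chr20:58888776-58888976) KO exceeded DATG by 0.81 ± 0.10. Within IGF2R, a region nearest to AIRN, the antisense RNA of that locus (chr6:160030240-160030440), had 21.3 and 23.4 CPM in KO, 20.8 CPM in DATG and 4.71 and 3.84 CPM in WT on day 5 of SMADi. Within SNRPN, a region nearest to SNURF (chr15:24919500-24919700) had 0.143 and 0.128 CPM in KO, 0.0464 CPM in DATG and 1.18 and 1.66 CPM in WT on that day. The mutant values there lie near the floor, and no fold change is given for this region or the AIRN region. On day 5 of BMP4 the SNURF place had 1.66 and 1.42 CPM in KO, 2.83 and 2.48 CPM in DATG and 2.91 and 2.62 CPM in WT. The AIRN place then had 4.08 and 3.24 CPM in KO, 3.54 and 3.73 CPM in DATG and 5.98 and 4.91 CPM in WT. At the printed SNRPN window the region (chr15:24954811-24955011) also belongs to SNURF, and under BMP4 it was called neither in KO (0.17 ± 0.08) nor in DATG (0.09 ± 0.08). The region under the first printed GNAS window (chr20:58839520-58839720) had 4.96 to 8.14 CPM in KO, 3.63 to 7.70 CPM in DATG and 5.06 to 7.23 CPM in WT under BMP4, and was called in neither line (0.12 ± 0.10 and 0.11 ± 0.10).

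Other imprinted genes, 25 in a list, gave a setting for these values. Regions were found for 19 of them in the day 0 and BMP4 tables and for 21 in the SMADi table. At day 0 none was called in any comparison. For KO against WT, DATG against WT and KO against DATG 2, 1 and 0 had an unadjusted p under 0.05, against 2523, 2701 and 3095 of all 27629 genes. Under BMP4, 2 of 19 were called in KO, both higher, against 26.5% of all genes, and 1 of 19 in DATG, against 13.0%. MEG3, a maternally expressed long noncoding RNA on chromosome 14, was higher in KO (0.34 ± 0.06) and DATG (0.32 ± 0.06), and NAP1L5 was higher in KO (0.18 ± 0.06). In WT, 8 of 19 were called between day 5 and day 1 of BMP4, 4 in each direction, against 47.6% of all genes. CDKN1C, a growth inhibitor silenced in the KCNQ1OT1 domain, was higher by 0.45 ± 0.09, KCNQ1 by 0.50 ± 0.15 and INPP5F by 0.33 ± 0.09. PHLDA2 (−0.32 ± 0.09), DIRAS3 (−0.54 ± 0.15) and MAGEL2 (−0.38 ± 0.13) were lower.

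Under SMADi, 11 of 21 were called in KO, 10 of them higher, against 44.8% of all genes, and 8 of 21 in DATG, 6 of them higher, against 33.9%. KCNQ1, the potassium channel gene that contains the KCNQ1OT1 regions, was higher in KO (0.79 ± 0.10) and DATG (0.72 ± 0.11). IGF2-AS was higher in KO (0.40 ± 0.08), INPP5F in DATG (0.29 ± 0.06) and MEG3 in both (0.20 ± 0.05 and 0.17 ± 0.05). PHLDA2 was lower in KO (−0.28 ± 0.07), and NAP1L5 (−0.31 ± 0.09) and BLCAP (−0.15 ± 0.06), the host of NNAT, were lower in DATG. In WT, 8 of 21 were called between day 5 and day 1, against 43.9% of all genes, with MEG3 (1.94 ± 0.08), DLK1 (1.28 ± 0.12) and PLAGL1 (0.51 ± 0.08) higher and PHLDA2 (−0.66 ± 0.11) and NAP1L5 (−0.62 ± 0.13) lower. Without KO day 1 b, 9 of 21 were called in KO, 8 of them higher, against 38.6% of all genes, with KCNQ1 at 0.77, IGF2-AS at 0.45, MEG3 at 0.23 and PHLDA2 at −0.27, all 4 still called.

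Over the 15 group means under BMP4, the protein-coding gene with no end within 1 Mb whose log2 sum was most like that of each of 7 members was named by Pearson's r, as a description. It was TMEM14C for PEG10 (0.98), TMEM87A for both KCNQ1OT1 (0.97) and IGF2 (0.97), ZDHHC19 for GNAS (0.94), C16orf96 for MEST (0.88), CHAF1A for SNRPN (0.85) and TDRD3 for NNAT (0.84). Between 10961 and 10978 candidates were searched per member, and the means share days and libraries.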

How the data were processed

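ATAC-seq of H1 cells was deposited as 3 tables (day 0, BMP4, SMADi) of whole-number read counts per region of fixed length, not normalized by the authors, per the file headers. Per the submitters' processing notes MACS2 and GRCh38 were used; the aligner is not given in the sources used here. The members and gene lists were chosen with earlier results of these data known. Regions were assigned, from the centre (start plus 100 bp), to the nearest end of a RefSeq coding or long noncoding gene within 50 kb. The annotation used gives no strand, so which end is a start is textbook knowledge.

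Gene sums and regions were each tested over the whole table with edgeR 4.0.16 (R 4.3.3): filterByExpr, TMM scaling, quasi-likelihood fit with a mean per line and day, contrasts averaged over days, and Benjamini-Hochberg adjustment over all features, called under 0.05. Standard errors were back-calculated from the test. CPM were computed from total counts times TMM factors. Depth ran from 4019778 to 23252871 counts per library, and reads are not independent molecules. Named regions were the strongest of each gene and table and, per comparison and direction, the 3 called with the smallest p. Scripts were tested on simulated data.

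Alternatives were RLE and total-count scaling, no low-count filter, DESeq2 1.42.0, the replicate letter as a block, regions within 1 kb of any gene end or 2 kb of a member's ends, and each library left out. Regions over a member's whole span (with 2 kb either side) were added after seeing the data, as were the 3 choices of regions without KO day 1 b. The gene most like IGF2R is not reported here.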

Additional observations from a re-analysis of the deposited data

Results flagged for a closer look

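The change of PEG10 between day 1 and day 5 of SMADi differed between lines by the test of the difference itself. It exceeded that of WT by 0.36 on the log2 scale in KO (adjusted p = 0.0453 in edgeR's quasi-likelihood test) and lay below it in DATG, at −0.44 (adjusted p = 0.0464). PEG10 had 57.8 and 67.2 CPM on day 5 and 44.5 and 45.5 CPM on day 1 in KO, single libraries of 51.8 CPM on day 5 and 64.6 CPM on day 1 in DATG, and 59.8 and 51.9 CPM on day 5 and 51.7 and 50.2 CPM on day 1 in WT. Without the KO day 1 b library neither difference was called, and counted within 1 kb of a gene end the DATG value was 0.10 and not called. That value rests on a single PEG10 region (chr7:94657183-94657383) with a mean of 2.29 CPM over the SMADi libraries.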

How the results depend on the processing

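Without the low-count filter no member call changed. The member gene counts changed as follows by over 1.5 times. Under DESeq2 they were 0 for DATG against WT under BMP4 and 0 for each of the 2 changes over SMADi days. Total-count scaling gave 0 for the KO change, and RLE scaling 0 for the DATG change. Regions within 1 kb gave 0 for DATG against WT and 0 for KO against DATG under BMP4, 2 for WT day 5 against day 1 under BMP4, and under SMADi 1 for KO against WT, 0 for DATG against WT, 2 for WT day 5 against day 1 and 2 for the KO change. Regions within 2 kb gave 0 and 0 for the same BMP4 line comparisons, and under SMADi 0 for DATG against WT, 2 for WT day 5 against day 1 and 2 for the KO change. Whole spans gave 2 for WT day 5 against day 1 under BMP4, and under SMADi 6 for KO against WT, 3 for WT day 5 against day 1, 3 for the KO change and 2 for the DATG change. Member region counts under DESeq2 were 9 for KO and 3 for DATG against WT under BMP4, and 9 for DATG against WT and 16 for WT day 5 against day 1 under SMADi. The share of all genes or regions called under each setting is not set beside these counts, nor beside the counts further below. A change in a count is therefore not read as particular to the members. The cause of these differences was not tested.

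Directions reversed at GNAS under SMADi. KO against WT was 0.0265 within 2 kb and 0.149 over the span. DATG against WT was 0.0715 within 1 kb, 0.152 within 2 kb and 0.0139 over the span, and WT day 5 against day 1 was 0.0605 over the span. KCNQ1OT1 in KO was −0.17 over its span, and the PEG10 change in DATG was 0.10 within 1 kb, where PEG10 has a single weak region. Without KO day 1 b, which was combined with these choices of regions after seeing the data, KO against WT at GNAS was 0.0631 within 2 kb and 0.137 over the span, and KCNQ1OT1 was −0.197 over its span.

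With 1 library left out, member genes called ran from 3 to 4 for KO against WT and 0 to 2 for DATG against WT under BMP4, and under SMADi from 1 to 3 for KO, 2 to 4 for DATG, 4 to 6 for WT day 5 against day 1, 0 to 1 for the KO change and 0 to 2 for the DATG change, which has no value without either lone DATG library. Regions ran from 11 to 16, 7 to 8 and 19 to 26 under BMP4 and from 12 to 28, 9 to 25 and 18 to 25 under SMADi, for KO, DATG and WT day 5 against day 1.

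Replicate letters were checked as pairs, by correlating deviations of same-lettered libraries from their group means. The values ran from −0.16 to 0.04 (median −0.13) in the day 0 table and from −0.34 to 0.34 (median 0.05) in the BMP4 table. In the SMADi table they ran from −0.35 to 0.49 (median −0.05). The letters were not taken as pairs in the main fits, though some groups did correlate. With the letter as a block, called members fell to 0 for both changes over SMADi days, and called regions for DATG against WT under SMADi numbered 10. Depth limits regions near 1 CPM most.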
